A study of Mus musculus with 9 samples.

Results

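Matricellular proteins are secreted into the extracellular matrix and act on cells there, through integrins, proteoglycans and growth factors, more than they bear load. The 10 genes described here are 4 members of the CCN family (Ccn1, Ccn2, Ccn4 and Ccn5), the thrombospondins Thbs1 and Thbs2, tenascin C (Tnc), periostin (Postn), the collagen-binding glycoprotein Sparc and osteopontin (Spp1). They were taken by symbol from a table of 40879 genes, in which 18619 were counted at least once and 11980 passed a filter on low counts, and all 10 were listed, counted and tested. In muscle, genes of this kind are known for their induction during repair and fibrosis. Ccn1 and Ccn2 are widely used readouts of the YAP/TAZ-TEAD transcription factors, which respond to mechanical tension, and both are also induced by serum and TGF-beta.

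The constructs were made from C2C12, a mouse myoblast line of wild-type genotype per the labels, embedded in matrix prepared from muscle tissue. Growth medium for 2 days was followed, in all 3 groups, by 10 days of differentiation medium containing 10% equine serum. Irradiated constructs were made senescent with 20 Gy of X-rays, given once. Cocultured constructs received no radiation themselves and were grown beside an irradiated construct, whose secreted factors could reach them, and normal constructs were neither irradiated nor exposed to irradiated ones. There were 3 libraries in each group by the labels, while the design text counts n = 2 for irradiated and normal constructs. A single established line models muscle here, and the labels name no other cells. Constructs of 1 condition were grown 2 to a dish and the labels do not give the dish. Libraries from the same dish would not be independent, and p-values could then be too small. The labels do not pair cocultured with irradiated constructs either. The p-values reflect construct-to-construct spread, part of which may be technical.

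Library totals ran from 6485655 to 8290468 counts in irradiated, from 7506605 to 8035763 in cocultured and from 4840993 to 6607557 in normal constructs. Of genes with a mean of 20 to 50 normalised CPM (TMM-scaled counts relative to library size) in the libraries that were not irradiated, 5.20% to 20.3% were without a count in irradiated libraries, 0.372% to 3.45% in cocultured and 0.0676% to 3.18% in normal ones. A list of 12 skeletal muscle markers, among them Myog, Des, Acta1 and Ttn, had counts for all 12 in each group. Its summed level was 69231 CPM in irradiated 1 and 10334 and 10065 CPM in irradiated 2 and 3, against 5484 to 11321 CPM in cocultured constructs and 5997, 8581 and 111475 CPM in normal 1, 2 and 3. Irradiated 1 and normal 3 thus stood apart from their groups in this sum, though not in every marker. Both had the highest level in their group of Acta1, Ttn, Tnnt3, Ckm, Mylpf, Actn2, Myh1 and Des. Myh3 was instead lowest in both, with 60.1 CPM in irradiated 1 against 244 and 350 CPM in irradiated 2 and 3. In normal 3, Myod1, Myog and Myh8 lay between normal 1 and 2. In irradiated 1, Myod1 was lowest and Myog and Myh8 were highest of the group. Within their own groups, normal 3 was the lowest library for 5 of the 10 matricellular genes (Ccn1, Ccn2, Ccn4, Thbs2 and Spp1) and irradiated 1 for 7 (Ccn2, Ccn4, Ccn5, Thbs2, Postn, Sparc and Spp1). Without both libraries, 9 of the 10 genes kept the sign of their difference between irradiated and normal constructs and 0 were called. In bulk RNA, fewer cells of a type and less RNA per cell cannot be told apart.

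In irradiated constructs the mean level was lower than in normal ones for Ccn1, Ccn2, Thbs1, Thbs2 and Tnc, by 2.19-fold to 4.42-fold, and higher for Ccn4, Ccn5, Postn and Sparc, while Spp1 was nearly level. These 9 directions were the same under the 21 processing alternatives that gave a value (20 for Ccn1 and Ccn5). None of the 10 passed the test. The quasi-likelihood test of edgeR, adjusted by Benjamini-Hochberg over all 11980 genes, gave 7 genes with an adjusted p under 0.05, which is 0.0584% of those tested (0.0501% lower and 0.00835% higher). At an unadjusted p under 0.05, 4 of the 10 were lower (Ccn2, Thbs1, Thbs2 and Tnc) and 0 higher, beside 8.70% of all genes lower and 1.59% higher, 10.3% in all. DESeq2 called 2, with Ccn2 lower and Sparc higher, among 455 genes or 3.80% of those tested. With limma voom 1 was called, Sparc, among 25 genes or 0.209%. In edgeR with every counted gene tested, 2 were called lower, Ccn2 and Thbs1, among 130 of 18619 genes or 0.698%.

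The groups were fully apart in 4 of the 10 genes, as in 15.7% of all genes tested. Every irradiated library lay below every normal one for Ccn2, Thbs2 and Tnc, as for 11.8% of all genes, and above for Sparc, as for 3.94% of all genes. The median log2 fold change of the 10 was -0.57, beside -0.21 over all tested genes.

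**Figure D1:**
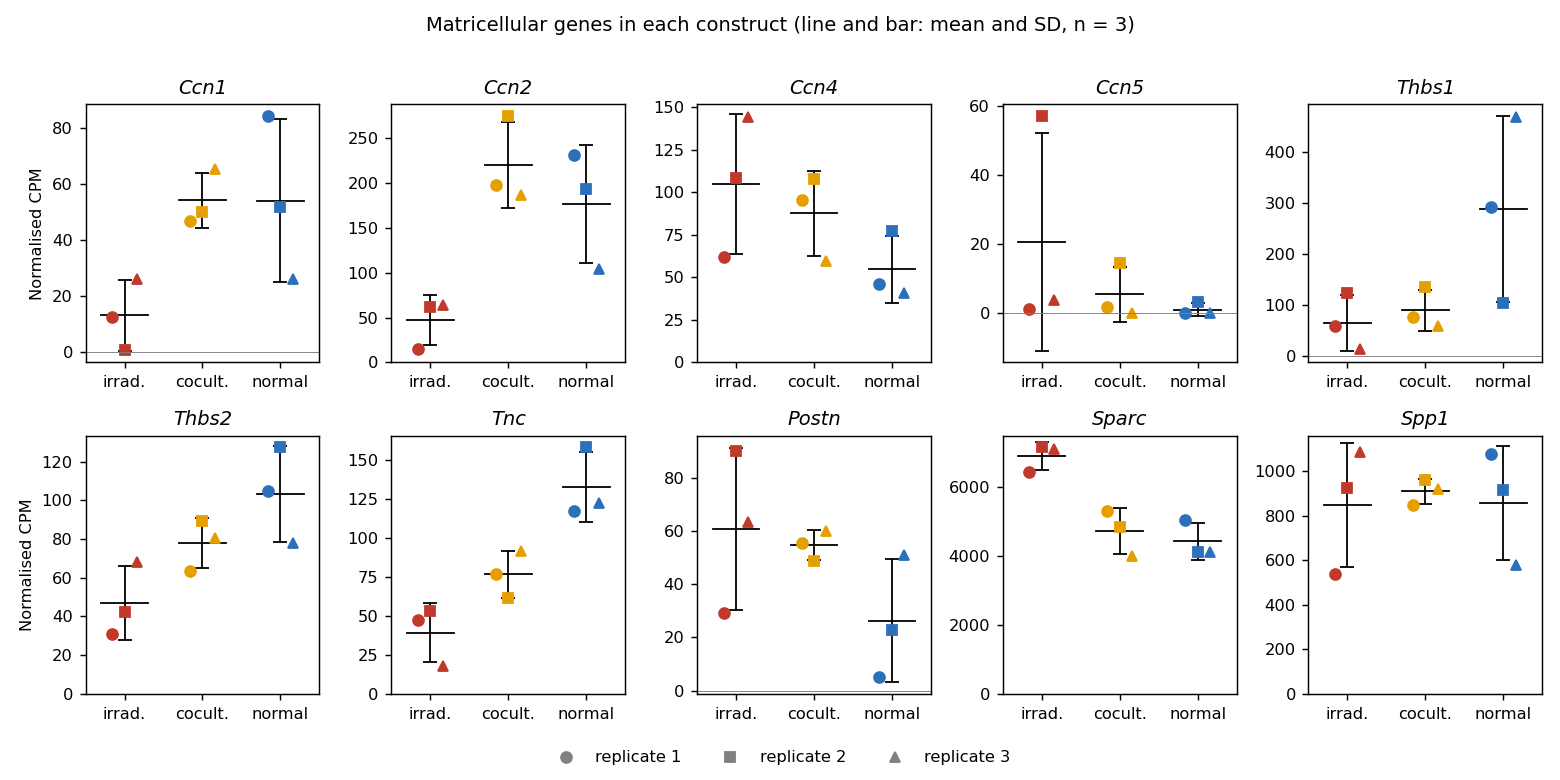
Normalised CPM of the 10 genes in each library, with irradiated, cocultured and normal constructs from left to right in each panel, 1 point per library (circle, square and triangle for replicates 1, 2 and 3) and lines for the mean and SD of 3. The irradiated libraries lie below all normal ones for Ccn2, Thbs2 and Tnc and above them for Sparc, and a single irradiated library holds most of Ccn5.

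Among the CCN genes, Ccn2, the connective tissue growth factor that promotes matrix production, showed the clearest separation. It had 15.5, 62.0 and 64.3 normalised CPM in irradiated 1, 2 and 3, against 198, 275 and 187 CPM in cocultured and 232, 194 and 104 CPM in normal constructs. All 3 irradiated values were below the other 6, and cocultured and normal values overlapped. The means were 47.2 ± 27.6 CPM in irradiated, 220 ± 48.0 in cocultured and 177 ± 65.5 in normal constructs (SD, n = 3 each). The log2 fold change against normal was -1.90 ± 0.52 (SE, edgeR adjusted p = 0.267). It was called by DESeq2 (log2 -1.81 ± 0.57, adjusted p = 0.0405) and when every gene with a count was tested in edgeR (log2 -1.89, adjusted p = 0.0357). Irradiated 1, the library with the highest sum of muscle markers in its group, had the lowest value, and without it the log2 difference was -1.48.

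Ccn1, an immediate early gene whose protein binds integrins and can drive fibroblasts into senescence, had 12.7, 0.935 and 26.3 CPM in irradiated, 46.9, 50.2 and 65.3 CPM in cocultured and 84.1, 51.7 and 26.1 CPM in normal 1, 2 and 3. The irradiated libraries lay below every cocultured library, but irradiated 3 and normal 3 were nearly equal, so the irradiated and normal groups overlapped. Irradiated 2, the library with the most genes without a count, held only 10 counts of it. The log2 fold change against normal was -2.02 ± 0.98 (edgeR adjusted p = 0.493), and it was -3.00 without irradiated 3 and -1.47 without irradiated 2.

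Ccn4 and Ccn5 are known as the WISP proteins, after their link to Wnt signalling, and Ccn5 lacks the C-terminal domain of its relatives. Ccn4 had 61.8, 108 and 144 CPM in irradiated, 95.5, 108 and 59.8 CPM in cocultured and 46.4, 77.1 and 40.8 CPM in normal constructs. The 3 groups overlapped, with irradiated 2 and 3 above all normal libraries and irradiated 1 within their range. The log2 fold change of irradiated against normal was 0.94 ± 0.48 (edgeR adjusted p = 0.527), and it was 0.17 with irradiated 1 as the only irradiated library.

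Ccn5 was scarce except in a single library. Irradiated 1, 2 and 3 held 6, 609 and 32 counts (1.27, 56.9 and 3.73 CPM), cocultured 1, 2 and 3 held 17, 142 and 0, and normal 1, 2 and 3 held 0, 14 and 0. A count of 0 allows up to 0.613 CPM in normal 1, 0.816 CPM in normal 3 and 0.337 CPM in cocultured 3, at 3 counts and for counting error only. The fitted log2 fold change of irradiated against normal, 4.27 ± 2.93 (edgeR adjusted p = 0.832), rested on irradiated 2, which held 609 of the 647 irradiated counts. Without that library it was 1.23 ± 3.42.

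The upstream sequence of Ccn1 is shown because its paralog Ccn2 and it are the YAP/TAZ-TEAD readouts among the 10 genes, and those of Tnc (the first of its annotated starts) and Thbs2 because these genes too had lower means in irradiated constructs. Promoters of 6 of the 10 genes were matched in RefSeq's table of the build GRCm38.p6, and Ccn2, Ccn4, Ccn5 and Thbs1 were not. Each sequence below is the 250 bases before an annotated start, written 5′ to 3′ on the gene's strand.
Ccn1 (chr3:145649986-145650235, minus strand): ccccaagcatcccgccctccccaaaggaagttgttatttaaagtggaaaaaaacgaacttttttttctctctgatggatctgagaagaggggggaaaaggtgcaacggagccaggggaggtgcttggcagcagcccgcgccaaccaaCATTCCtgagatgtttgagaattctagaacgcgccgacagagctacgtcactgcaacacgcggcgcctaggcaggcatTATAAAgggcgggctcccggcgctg
Tnc (chr4:64047016-64047265, minus strand): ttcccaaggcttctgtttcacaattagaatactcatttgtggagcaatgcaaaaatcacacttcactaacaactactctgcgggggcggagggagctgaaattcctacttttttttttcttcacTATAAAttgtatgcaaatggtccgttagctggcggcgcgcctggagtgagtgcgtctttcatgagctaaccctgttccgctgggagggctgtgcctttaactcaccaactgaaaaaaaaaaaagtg
Thbs2 (chr17:14694263-14694512, minus strand): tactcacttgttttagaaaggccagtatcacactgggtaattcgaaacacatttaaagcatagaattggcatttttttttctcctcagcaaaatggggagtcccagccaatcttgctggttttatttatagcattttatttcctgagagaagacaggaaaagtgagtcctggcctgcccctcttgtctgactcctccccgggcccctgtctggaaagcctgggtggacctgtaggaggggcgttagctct
Capitals mark matches to GGAATG, the core of the TEAD motif, on either strand, to the AP-1 motif TGANTCA on either strand, and to TATAAA on the gene's strand. No match overlaps another. Ccn1 held GGAATG on the opposite strand, 103 bases before the start, and TATAAA at 25 bases. The Tnc window held TATAAA at 126 bases, and the Thbs2 window held none of them. Over all 32851 promoter windows of that length, 12.6% held GGAATG, 6.75% TGANTCA and 7.59% TATAAA. A match is a description of these letters and says nothing of binding in these constructs.

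Thbs1 and Thbs2 encode large trimeric glycoproteins that bind CD47, CD36 and integrins, and Thbs1 also activates latent TGF-beta. Thbs1 had 58.4, 123 and 13.9 CPM in irradiated, 76.3, 135 and 58.0 CPM in cocultured and 293, 104 and 469 CPM in normal 1, 2 and 3. Normal 1 and normal 3 were above every irradiated and cocultured library, whereas normal 2 lay within both ranges. Means were 65.3 ± 55.1 CPM in irradiated, 89.8 ± 40.4 in cocultured and 289 ± 182 in normal constructs (SD, n = 3 each). Against normal, the log2 fold change was -2.14 ± 0.71 in irradiated (edgeR adjusted p = 0.426) and -1.68 ± 0.70 in cocultured constructs (edgeR adjusted p = 1), and both comparisons use the same normal libraries. When every gene with a count was tested, the irradiated difference was called (edgeR adjusted p = 0.00902). Without normal 3 the values were -1.60 in irradiated and -1.15 in cocultured constructs, and without irradiated 2 the first was -3.00.

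Thbs2, which is known to limit vessel growth and to shape collagen fibrils, had 30.9, 42.1 and 68.3 CPM in irradiated, 63.7, 89.6 and 80.7 CPM in cocultured and 105, 127 and 77.8 CPM in normal constructs. The irradiated values were all under the normal ones, and the cocultured values overlapped both. The log2 fold change of irradiated against normal was -1.13 ± 0.47 (edgeR adjusted p = 0.483). It ran from -1.50 without irradiated 3 to -0.90 without irradiated 1 as single libraries were left out.

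Tnc, the hexameric glycoprotein that is deposited in injured and regenerating muscle, was the 1 gene of the 10 in which no pair of groups overlapped. It had 47.2, 53.1 and 17.6 CPM in irradiated, 76.9, 61.8 and 91.6 CPM in cocultured and 118, 159 and 122 CPM in normal constructs. Irradiated libraries were lowest, cocultured ones between and normal ones highest. Over all genes tested, groups were apart for 15.7% in irradiated against normal and for 13.2% in cocultured against normal. In irradiated against cocultured the share was 14.5%. The share of all genes apart in all 3 comparisons was not computed, so this trait is not shown to be particular to Tnc. Means were 39.3 ± 19.0 CPM in irradiated, 76.8 ± 14.9 in cocultured and 133 ± 22.4 in normal constructs (SD, n = 3 each). The log2 fold change was -1.76 ± 0.49 for irradiated against normal (edgeR adjusted p = 0.287), -0.79 ± 0.48 for cocultured against normal (edgeR adjusted p = 1) and -0.97 ± 0.48 for irradiated against cocultured (edgeR adjusted p = 0.494). None of these passed the test, and the smallest adjusted p that any alternative gave for irradiated against normal was 0.0613.

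Postn, a matricellular protein induced by TGF-beta that supports collagen crosslinking, had 29.2, 90.1 and 63.5 CPM in irradiated, 55.6, 48.9 and 60.1 CPM in cocultured and 5.11, 22.8 and 50.9 CPM in normal 1, 2 and 3. The cocultured libraries were close to each other, with a coefficient of variation of 10.2%, while the normal libraries spanned 9.97-fold. Normal 3, the library with the highest sum of muscle markers, lay above normal 1 and 2 and within the irradiated and cocultured ranges. Against normal, the log2 fold change was 1.22 ± 0.80 in irradiated (edgeR adjusted p = 0.783) and 1.06 ± 0.79 in cocultured constructs (edgeR adjusted p = 1). Without normal 3 these were 2.14 and 1.98, and neither passed.

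Sparc, which binds collagen and calcium and aids procollagen processing, was the steadiest of the genes within the irradiated group. It had 6422, 7171 and 7095 CPM in irradiated, 5314, 4834 and 4009 CPM in cocultured and 5045, 4111 and 4125 CPM in normal constructs. Irradiated values were above all others, and cocultured and normal values overlapped. Means were 6896 ± 413 CPM in irradiated, 4719 ± 660 in cocultured and 4427 ± 535 in normal constructs (SD, n = 3 each). Irradiated differed from normal by a log2 of 0.64 ± 0.34 (edgeR adjusted p = 0.569), a 1.56-fold difference. Sparc was called higher by DESeq2 (adjusted p = 0.00320) and by limma voom (adjusted p = 0.0235), which use other estimates of its spread.

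Spp1, the phosphoprotein osteopontin that binds CD44 and integrins and is made by macrophages and bone cells as well as myoblasts, had 538, 922 and 1084 CPM in irradiated, 850, 961 and 921 CPM in cocultured and 1077, 916 and 577 CPM in normal constructs. The groups overlapped throughout, and the lowest values were those of irradiated 1 and normal 3. Its log2 fold change of irradiated against normal was -0.014 ± 0.35 (edgeR adjusted p = 1), and its sign turned in 10 of 21 alternatives. The 10 macrophage markers on the list summed to 1.40 to 42.3 CPM in irradiated, 29.7 to 168 CPM in cocultured and 107 to 457 CPM in normal constructs. Of these, 5, 7 and 6 had a count in the irradiated, cocultured and normal groups, and the pan-leukocyte gene Ptprc was at 0 in irradiated and normal libraries. Cd14 was more than all the other markers together in each library except irradiated 1, with 4.87, 18.6 and 1.05 CPM in irradiated, 16.7, 135 and 168 CPM in cocultured and 445, 94.0 and 134 CPM in normal constructs. The complement gene C1qa had its highest level, 15.2 CPM, in irradiated 1. Of 9 osteoblast and chondrocyte markers, summed levels were 172 to 289 CPM in irradiated, 247 to 307 in cocultured and 181 to 274 in normal constructs, and Bglap, Ibsp, Dmp1 and Acan were at 0 in all 9 libraries. Most of each sum was Sox9, at 135, 267 and 289 CPM in irradiated, 255, 217 and 235 CPM in cocultured and 213, 249 and 155 CPM in normal constructs. Runx2 had 19.1, 0 and 0 CPM in irradiated, 52.4, 30.1 and 59.3 CPM in cocultured and 52.3, 13.8 and 20.1 CPM in normal constructs.

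**Figure D2:**
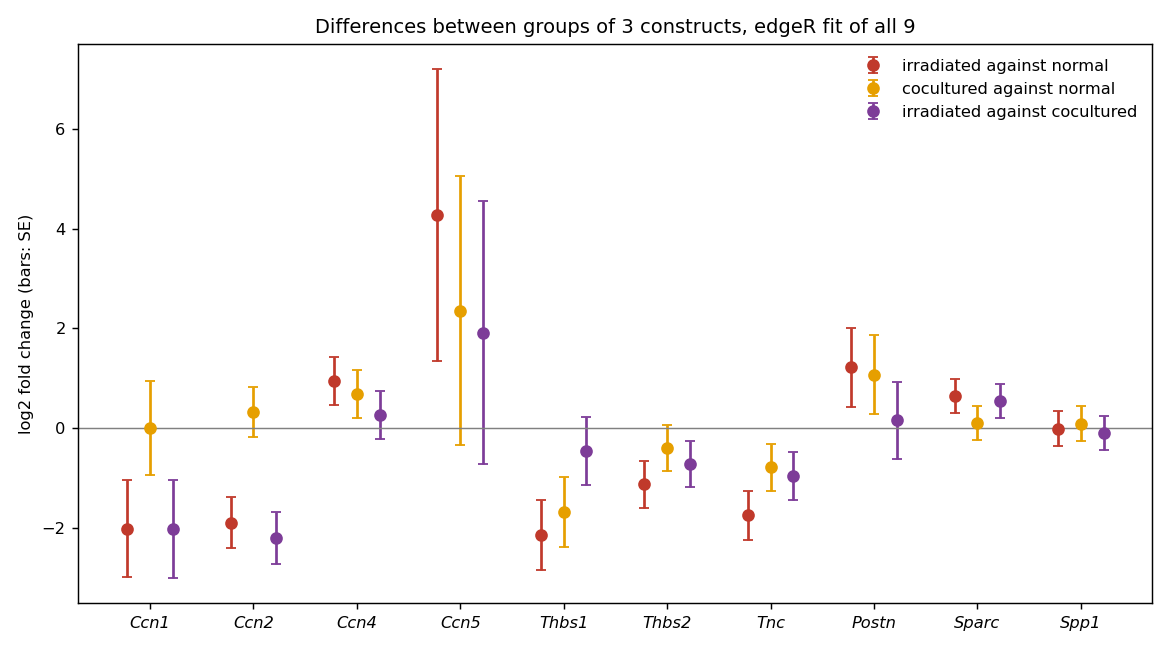
Log2 fold changes of the 10 genes in the 3 comparisons, with bars for the standard error, from an edgeR fit of all 9 libraries. Ccn1 and Ccn2 are negative where irradiated constructs are compared with either other group and near 0 or slightly positive in cocultured against normal, and Ccn5 has the widest bars.

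In constructs cultured beside an irradiated one, none of the 10 genes passed the test against normal constructs. edgeR called 0 of 11980 genes there, and DESeq2 called 124, or 1.04%, with 0 of the 10 among them. By unadjusted p, 492 genes or 4.11% of those tested were under 0.05 (3.26% lower and 0.851% higher), with 1 of the 10 among them, Thbs1, which was lower. Groups were apart for 1 of the 10, Tnc, which was lower, as were 7.51% of all genes, and for 0 in the higher direction, beside 5.66% (13.2% of all genes in both directions). Ccn2 averaged 220 ± 48.0 CPM in cocultured and 177 ± 65.5 CPM in normal constructs (log2 0.31 ± 0.50), and Ccn1 averaged 54.1 ± 9.82 CPM in cocultured and 54.0 ± 29.1 CPM in normal constructs (log2 0.0026 ± 0.94; SD, n = 3 each). The sign of Ccn1 turned in 8 of 20 alternatives. Sparc and Spp1 differed from normal by log2 values of 0.09 ± 0.34 and 0.09 ± 0.35.

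Set directly against cocultured constructs, irradiated constructs had lower mean levels of Ccn1, Ccn2, Thbs1, Thbs2 and Tnc and higher ones of Ccn4, Ccn5, Postn and Sparc. Spp1 differed by a log2 of -0.10 ± 0.35. The signs of Ccn4, Ccn5, Postn, Thbs1 and Spp1 turned when certain irradiated libraries were left out. Again 0 of the 10 were called by edgeR, beside 4 genes or 0.0334% of all tested, and 1 of the 10 had an unadjusted p under 0.05, beside 9.58% of all genes (7.33% lower and 2.25% higher). That gene was Ccn2, lower, with a log2 fold change of -2.22 ± 0.52 (edgeR adjusted p = 0.255) and the 44th smallest p of 11980. DESeq2 called Ccn2 (adjusted p = 0.00759) and Sparc (adjusted p = 0.00900) among 529 genes, 4.42% of those tested. With limma voom, Sparc was called (adjusted p = 0.00635) among 105 genes, 0.876% of those tested. Groups were apart for 4 genes, beside 14.5% of all genes, with Ccn1, Ccn2 and Tnc lower, as were 10.6% of all genes, and Sparc higher, as were 3.90%. The irradiated libraries are shared with the comparison against normal constructs, so these values are not independent of those above.

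Ratios between 2 genes within a library do not depend on how libraries were scaled. Ratios of 5 pairs were computed, chosen after their values were seen, so they are given without a test. Ccn4 had 4, 1.75 and 2.25 counts per Ccn2 count in irradiated 1, 2 and 3, against 0.483, 0.393 and 0.320 in cocultured and 0.20, 0.397 and 0.392 in normal constructs. Every irradiated library had a higher ratio than every other library. Levels are not compared between genes here, so a ratio is read only between libraries. Sparc had 135 to 403 counts per Tnc count in irradiated, 43.8 to 78.2 in cocultured and 25.9 to 42.9 in normal constructs, 3 ranges that did not meet. Per Thbs2 count, Sparc had 104 to 208 counts in irradiated, 49.7 to 83.4 in cocultured and 32.3 to 53.0 in normal constructs. Spp1 had 14.9 to 34.8 counts per Ccn2 count in irradiated, 3.49 to 4.93 in cocultured and 4.65 to 5.53 in normal constructs. In these 4 pairs the irradiated libraries were above the other 6. Their denominators, Ccn2, Tnc and Thbs2, were already seen lower in irradiated constructs, so this separation follows in part from the choice of pairs. The groups overlapped in the remaining pair, with 0.529, 0.341 and 4.92 Thbs2 counts per Thbs1 count in irradiated, 0.835, 0.662 and 1.39 in cocultured and 0.358, 1.22 and 0.166 in normal constructs.

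**Figure D3:**
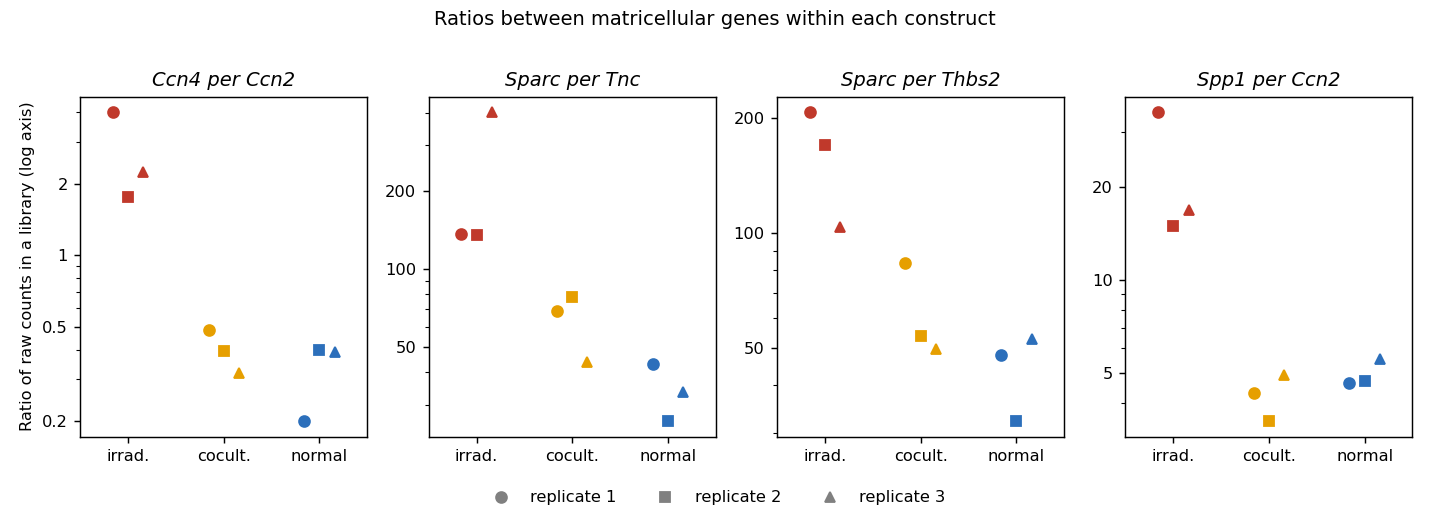
Ratio of raw counts of 2 genes within each library, on log axes, for irradiated, cocultured and normal constructs from left to right, 1 point per library. All 3 irradiated libraries lie above the other 6 in these 4 panels, which leave out the pair Thbs2 and Thbs1, whose groups overlap.

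The 10 genes did not share a single pattern over the 9 libraries. Likeness was measured as the root mean square difference in log2 CPM after each gene was centred on its own mean, over 9 libraries. For Ccn2 the nearest of 6046 genes with a mean of at least 20 CPM were Slc25a17 (0.31) and the laminin chain Lamc1 (0.39), and the nearest of the 10 was Thbs2 (0.80). For Ccn1 they were Nup88 (0.43) and Fam168b (0.59), and Thbs2 again among the 10 (1.40). Tnc lay nearest to Abhd17c (0.28) and Rnf220 (0.30), Thbs1 to Slc25a37 (0.59) and Trib2 (0.66), and Thbs2 to the tropomyosin gene Tpm4 (0.19) and Sec61a1 (0.26).
Genes with higher irradiated means had other neighbours. Sparc lay nearest to Tut7 (0.11) and Tmem50a (0.16), Ccn4 to Tpgs1 (0.18) and App (0.23), Postn to Isg20l2 (0.45) and Twsg1 (0.58), and Ccn5 to Slc8a1 (1.48) and Igf1 (1.59). Spp1 lay nearest to Lman2 (0.11) and Rpl36a (0.16). The nearest partner among the 10 ranked from the 56th, for Thbs1, to the 752nd place, for Ccn1. These distances describe 9 libraries that share their scaling factors and depth.

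Relatives of the 10 genes were mostly scarce. Of 5 further CCN and thrombospondin genes, 2 were tested, and neither passed. Ccn3 had 0, 0 and 18.3 CPM in irradiated, 20.7, 16.9 and 6.07 CPM in cocultured and 0, 5.88 and 0 CPM in normal constructs, and Thbs3 stayed at or under 14.3 CPM in every library. Of 19 genes, relatives of SPARC, tenascin, periostin and osteopontin together with the unrelated Mgp, Fbln5, Lgals1 and Lgals3, 9 were tested and 0 called. Their median log2 fold change of irradiated against normal was -0.25, beside -0.21 over all genes. Mgp, the matrix Gla protein that inhibits calcification, had 1636, 2409 and 2318 CPM in irradiated and 861, 1353 and 454 CPM in normal constructs (log2 1.25 ± 0.41, edgeR adjusted p = 0.424). Lgals3, a galectin, averaged 363 ± 33.1 CPM in irradiated and 654 ± 77.6 CPM in normal constructs (log2 -0.85 ± 0.30, edgeR adjusted p = 0.483). Neither passed. Groups were apart in both genes, with Mgp higher, as were 3.94% of all genes, and Lgals3 lower, as were 11.8%. The text names both because they had the smallest p on their list.

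Receptors of these proteins gave 18 tested genes of 21, of which 0 were called, 14 had negative and 4 positive log2 values in irradiated against normal constructs, and the median was -0.47. Over all genes tested, 6973 values were negative and 5001 positive, with a median of -0.21. Sdc4, the syndecan that binds CCN proteins and tenascin C, had 278, 123 and 124 CPM in irradiated and 584, 547 and 374 CPM in normal constructs (log2 -1.52 ± 0.38, edgeR adjusted p = 0.196). Itgb1, the integrin beta chain shared by most of these receptors, averaged 353 ± 29.6 CPM in irradiated and 672 ± 71.1 CPM in normal constructs (log2 -0.93 ± 0.28, edgeR adjusted p = 0.374). In both genes every irradiated library was under every normal one, as in 11.8% of all genes. The scavenger receptor Lrp1 differed by a log2 of -0.28 ± 0.30 (edgeR adjusted p = 1).

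Among 18 regulators of the YAP/TAZ-TEAD system, all of them tested, 0 were called (median -0.35). Tead1 had 80.7, 13.8 and 40.5 CPM in irradiated and 124, 90.4 and 175 CPM in normal constructs (log2 -1.53 ± 0.55, edgeR adjusted p = 0.483). Vgll4, which competes with YAP for TEAD factors, averaged 231 ± 89.3 CPM in irradiated and 112 ± 21.3 CPM in normal constructs (log2 1.04 ± 0.37, edgeR adjusted p = 0.483), with overlapping groups. Wwtr1, which encodes TAZ, differed by a log2 of -0.05 ± 0.30. Of 21 tested targets of the same system out of 23, the 10 genes left aside, 1 fell and 0 rose. Of all genes, 0.0501% were called lower and 0.00835% higher. The median of the targets was -0.41, beside -0.21 over all genes. The list was drawn up with earlier results of these data known, so the count is not a test of the list.
The target that fell was Nt5e, the ectoenzyme that makes adenosine, which had the smallest p of all 11980 genes. It had no count in irradiated libraries, against 170, 79.5 and 133 CPM in normal ones, which makes it at least 1029-fold lower at a floor of 3 counts over the group (edgeR adjusted p = 2.94e-04). Axl, a receptor kinase, had 64.4, 75.8 and 66.9 CPM in irradiated and 204, 275 and 306 CPM in normal constructs (log2 -1.92 ± 0.33, edgeR adjusted p = 0.0643), just outside the threshold. Ankrd1, a muscle ankyrin repeat gene, averaged 259 ± 119 CPM in irradiated and 283 ± 124 CPM in normal constructs (log2 -0.13 ± 0.44, edgeR adjusted p = 1). Of the 21 targets, 15 had negative and 6 positive log2 values, beside 6973 negative and 5001 positive of all 11980 genes.

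Of 20 tested TGF-beta response genes out of 21, 0 were called, with a median of -0.37. Loxl2, a lysyl oxidase, had 3.18, 0 and 6.65 CPM in irradiated and 91.5, 53.8 and 53.1 CPM in normal constructs (log2 -4.33 ± 1.38, edgeR adjusted p = 0.401). Its irradiated libraries were all below the normal ones, as in 11.8% of all genes. The 0 was in irradiated 2, the library with the most genes without a count. Tpm1 followed the sum of muscle markers, at 19638 CPM in irradiated 1 and 35488 CPM in normal 3 against 877 to 2733 CPM elsewhere.

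Of 12 Wnt targets, 7 were tested and 0 called. In irradiated against normal constructs their median was -0.94, with 6 values negative and 1 positive, beside -0.21 over all genes. Notum, Tnfrsf19 and Dkk2 were each at 0 in 1 to 5 libraries, and Dkk2 had 3.18, 44.2 and 17.6 CPM in irradiated and 30.2, 13.8 and 68.8 CPM in normal constructs. Of 13 genes for proteases and enzymes that process matricellular proteins 11 were tested and 0 called, with a median of 0.33. Adamts1, a metalloprotease that cleaves thrombospondins, had 176, 162 and 175 CPM in irradiated, 120, 84.9 and 10.8 CPM in cocultured and 12, 42.5 and 38.1 CPM in normal constructs. Its irradiated libraries were alike and above all others (log2 against normal 2.47 ± 0.73, edgeR adjusted p = 0.347). Of all genes, 3.94% were apart and higher against normal and 3.90% against cocultured constructs. The stromelysin Mmp3 averaged 95.1 ± 53.2 CPM in irradiated, 100.0 ± 17.4 in cocultured and 248 ± 90.0 in normal constructs. Mmp2 averaged 1882 ± 535 CPM in irradiated, 1291 ± 30.8 in cocultured and 1099 ± 188 in normal constructs. None of these passed in any of the 3 comparisons.

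The remaining marker lists bear on other cell types. Fibroblast and fibro-adipogenic markers, without a count of Tcf21 in any library, summed to 5117 to 7666 CPM in irradiated, 6727 to 10939 in cocultured and 6394 to 11352 in normal constructs. Most of each sum was Dcn, and the smaller markers did not share a direction. Dpt had 36.8, 10.7 and 9.92 CPM in irradiated and 0 in normal constructs. Lum had 10.2, 20.6 and 10.9 CPM in irradiated and 14.5, 16.9 and 28.0 CPM in normal constructs. Smooth muscle and pericyte markers summed to 15.5 to 92.1 CPM in irradiated, 62.2 to 109 in cocultured and 88.4 to 243 in normal constructs. Endothelial markers summed to 5.72 to 37.1 CPM in irradiated, 0 to 7.99 in cocultured and 2.03 to 27.5 in normal constructs, with Emcn at 0 throughout. Their part in the results was not tested.

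**Figure D4:**
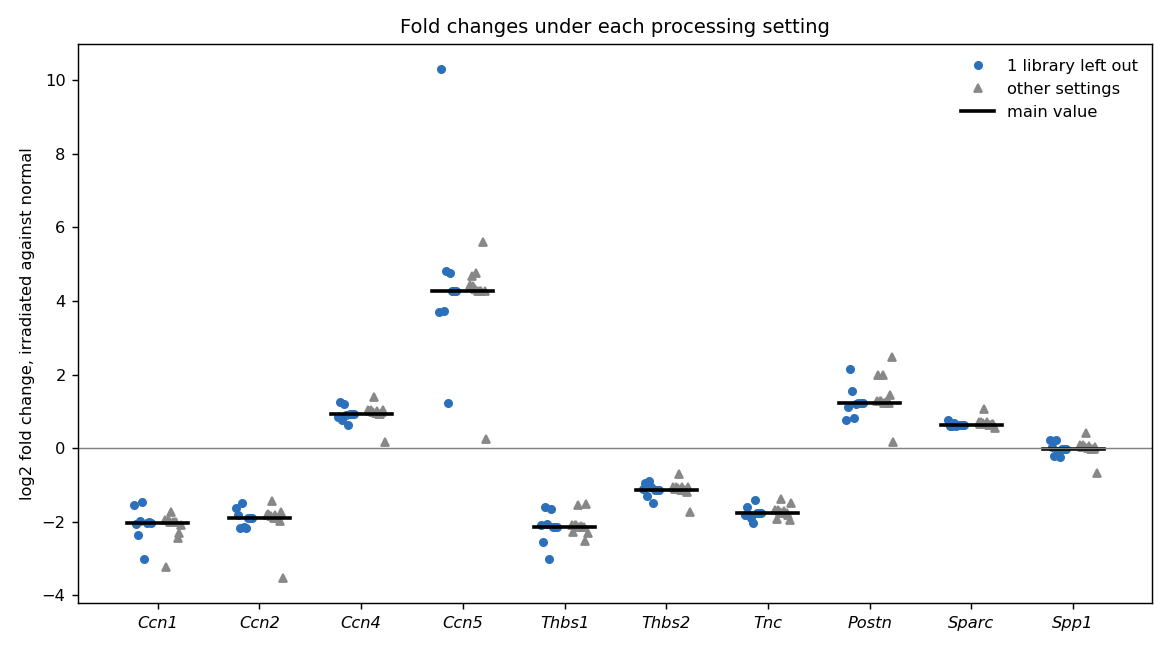
Log2 fold change of irradiated against normal constructs for each of the 10 genes, with a black line for the value of the edgeR fit of 9 libraries, circles for fits without 1 library and triangles for the other settings. The sign is the same under every setting shown except for Spp1, and Ccn5 moves the most, between 0.26 and 10.3.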

How the data were processed

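Counts per gene were analysed for 3 irradiated, 3 cocultured and 3 normal constructs. The values are whole-number counts as deposited, 1 library per file, not normalized. Per the labels' protocols, 100 ng of RNA went into QuantSeq 3′ FWD libraries, read as single-end 75 bp reads. Reads then lie near the 3′ end, so CPM is not divided by transcript length. Group differences compare a gene between libraries, not genes with each other. Where a gene is called scarce, leads a list or makes up most of a sum, this refers to its counts alone. The submitters' processing notes name FastQC, STAR, HTSeq, GRCm39 and mm39, without versions. The sources used here give no annotation, strand setting or duplicate handling. In GENCODE's annotation of GRCm38, antisense transcripts overlap Ccn2, Thbs1 and Tnc and another gene overlaps Spp1, so their reads may not be separable. Headings of the normal files carry "co", as those of the cocultured files do, and numbers 1 above the labels. Groups follow the labels.

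Within groups, pairs of libraries differed by a chi-square of 35.4 to 297 per gene, with 0 pairs identical. filterByExpr kept 11980 genes. TMM factors and 1 quasi-likelihood model with group as its term were fitted to 9 libraries with edgeR 4.0.16 in R 4.3.3. Alternatives used limma 3.58.1 and DESeq2 1.42.0. Calls need a Benjamini-Hochberg adjusted p under 0.05 over all tested genes. Standard errors are the log2 fold change over the square root of F. The common dispersion's square root came to 1.32. The test was also run on simulated data with set fold changes. Its outcome is not given here, so the share of true differences that the test would miss is not stated. Floors take 3 counts and cover counting error only.

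The 10 genes, 8 pathway lists and 6 marker lists were chosen with earlier results of these data known. From each pathway list the text names up to 4 members past the threshold, the 2 with the smallest p in irradiated against normal and the 1 with the highest mean. One gene that this rule names is not reported here. Replicate numbers did not pair the samples.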

Additional observations from a re-analysis of the deposited data

How the results depend on the processing

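With 3 libraries a group and a large spread, the number of genes called moved with the tool. Against normal, irradiated constructs had 7 genes called in edgeR, 455 in DESeq2, 25 in limma voom, 130 with every counted gene tested, 24 at a mean of at least 50 CPM, 0 with the 6 libraries alone, 20 without normal 3 and irradiated 1, and 6 to 147 as each library was left out (147 without irradiated 1). Of the 10 genes, 2 were called in DESeq2, 1 in limma voom, 2 (Ccn2 and Thbs1) with every counted gene and 0 as each library was left out. For irradiated against cocultured the counts were 4 in edgeR, 529 in DESeq2, 105 in limma voom, 9 with library totals, 153 with every counted gene, 2 at 50 CPM, 0 with 6 libraries, 21 without normal 3 and irradiated 1, and 1 to 97 as each library was left out, with 2, 1 and 1 of the 10 called in DESeq2, limma voom and every counted gene, and 0 as each library was left out. For cocultured against normal they were 0 in edgeR, 124 in DESeq2, 52 with every counted gene, 1 without normal 3 and irradiated 1, and 0 as each library was left out, with 0 of the 10 in each.

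Leaving out irradiated 2 and 3 together, chosen after seeing the data, left 1 irradiated library, which is assumed to vary like the other groups. It gave 190, 96 and 449 genes in irradiated against normal, cocultured against normal and irradiated against cocultured, with 2 (Ccn2 and Thbs1), 1 (Thbs1) and 1 (Ccn2) of the 10. Log2 values of irradiated against cocultured turned there to -0.51 for Ccn4, -2.10 for Ccn5 and -0.92 for Postn.

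Replicate numbers did not pair the samples, with correlations of same-numbered deviations of -0.07 to 0.05 and 3 of 9 libraries nearest to their own number. With a replicate block the counts were 23, 0 and 12, with 0 of the 10 in each, and Ccn1 in cocultured against normal turned to -0.049 and Postn in irradiated against cocultured to -0.075.

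Spp1 in irradiated against normal turned to 0.072 in DESeq2 and with RLE factors, 0.040 in limma voom, 0.027 with upper quartiles, 0.41 with library totals, 0.060 at 50 CPM and 0.021 without normal 3 and irradiated 1. In irradiated against cocultured it turned to 0.0021 in DESeq2, 0.0019 with RLE factors and 0.16 without normal 3 and irradiated 1. In cocultured against normal, Ccn1 turned to -0.0084 in DESeq2, -0.0083 with RLE factors, -0.026 with upper quartiles and -0.33 without normal 3 and irradiated 1, Spp1 to -0.13 without the same libraries, and Thbs2 to 0.10 with library totals. As each library was left out, signs turned within -0.23 to 0.23 for Spp1 in irradiated against normal. In cocultured against normal the ranges were -0.33 to 0.49 for Ccn1, -0.22 to 8.38 for Ccn5, -0.00065 to 0.22 for Sparc and -0.13 to 0.30 for Spp1. In irradiated against cocultured they were -0.045 to 0.53 for Ccn4, -1.12 to 4.48 for Ccn5, -1.32 to 0.018 for Thbs1, -0.25 to 0.48 for Postn and -0.32 to 0.14 for Spp1. Library totals in place of TMM moved the median of all genes by 0.36, 0.56 and -0.19 in the 3 comparisons, and relative to that shift Thbs2 in cocultured against normal was -0.45 and Spp1 in irradiated against normal 0.059. Ccn1 and Ccn5 have no value at 50 CPM. Where not stated, the cause was not tested.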
